A study of Mus musculus with 6 samples.

Results

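The granins are a family of acidic proteins stored in the dense-core granules of endocrine cells and neurons, and 5 of their genes are described here: *Chga*, *Chgb*, *Scg2*, *Scg3* and *Vgf*. They were taken by gene name from the 56747 genes of a footprint count table, each name stood for 1 gene, and all 5 passed the low-count filter that left 13100 genes for testing. The table holds 6 Ribo-seq libraries of pancreatic islets from male C57BL/6J mice aged 6 to 8 weeks, 3 after 2 h at 25 mM glucose (high glucose) and 3 after 2 h at 2.5 mM (low glucose). All islets were isolated with collagenase, rested overnight, held without glucose and treated with cycloheximide for the last 15 min to hold ribosomes in place. By the study's methods, islets from a given mouse went into both conditions and several mice were pooled for a replicate. Ribo-seq counts the mRNA fragments that ribosomes protect, so a footprint count follows both the amount of an mRNA and the number of ribosomes on it.

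Granins enter the ER as prohormone-like precursors and aggregate with calcium in the acidic trans-Golgi network, where forming granules collect them together with hormones. Convertases then cut them at pairs of basic residues into peptides. In islets they lie in the same granules as insulin in beta cells and glucagon in alpha cells, and they are released with these hormones when a cell is stimulated. CHGA and CHGB are the chromogranins, SCG2 is the precursor of secretoneurin, SCG3 is a granule membrane adaptor that binds CHGA and cholesterol, and VGF is a precursor first found as a product of a gene induced by nerve growth factor.

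Each library was deep enough for these genes, with totals from 16322162 to 20692579 counts in high glucose and from 9242549 to 12175699 in low glucose. Counts were scaled by library size and TMM factor (CPM), which makes every change relative to the rest of the library. The islet label was borne out by the markers. The 11 beta cell markers, of which 7 were higher and 3 (*Mafa*, *Ero1b* and *Iapp*) lower and whose sum is mostly *Ins2*, took 16.0% to 17.3% of footprints in high and 13.5% to 15.0% in low glucose, and the 9 alpha cell markers took 4.66% to 5.05% in high and 5.99% to 6.44% in low glucose. The alpha sum is mostly *Gcg* (3.97% to 4.31% in high, 4.93% to 5.13% in low glucose). Of the alpha markers 4 were lower and 5 did not pass. Of 15 acinar markers, 13 were lower in high glucose, none was higher, 1 did not pass and *Amy2a5* was at 0 in all libraries; together these markers took 0.0330% to 0.0351% in high and 0.0798% to 0.0860% in low glucose. The 5 delta cell markers took 0.488% to 0.498% in high and 0.655% to 0.723% in low glucose, and the 2 gamma cell markers 0.636% to 0.693% in high and 0.687% to 0.728% in low glucose. The delta sum is mostly *Sst* (0.455% to 0.463% in high, 0.613% to 0.683% in low glucose). Of the delta markers 2 were lower, 2 did not pass and *Lepr* was not tested. Markers of endothelial cells (0.0145% to 0.0155% in high, 0.0199% to 0.0210% in low glucose), stellate cells (0.00871% to 0.0104% in high, 0.0132% to 0.0141% in low glucose) and macrophages (0.00577% to 0.00633% in high, 0.00797% to 0.00913% in low glucose) summed to less in high glucose without overlap, and ductal markers to more (0.176% to 0.189% in high, 0.156% to 0.162% in low glucose). The 8 markers of neural and chromaffin cells, which also make granins, took 0.0268% to 0.0276% in high and 0.0267% to 0.0297% in low glucose. In footprints of a whole-islet lysate, fewer cells of a type, less RNA per cell and fewer ribosomes on each mRNA cannot be told apart. The part of these marker shifts in the granin values was not tested.

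The promoters of granin genes are known for a cAMP response element (CRE), the site that CREB and CREM bind, and they are shown because *Chgb* and *Scg2*, whose footprints went opposite ways, both hold the full site. Below are the 120 bases before the annotated start of each gene found in the RefSeq promoter table (4 of the 5 members, build GRCm38.p6), 5′ to 3′ on the gene's strand. Capitals mark the full CRE (TGACGTCA) or its core alone (TGACG).
Chgb, chr2:132781522-132781641, plus strand: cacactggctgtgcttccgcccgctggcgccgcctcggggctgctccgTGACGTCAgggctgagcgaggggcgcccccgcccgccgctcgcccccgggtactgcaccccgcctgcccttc
Scg2, chr1:79440027-79440146, minus strand: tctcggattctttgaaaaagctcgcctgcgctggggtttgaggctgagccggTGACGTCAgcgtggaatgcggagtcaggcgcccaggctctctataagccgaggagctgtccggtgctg
Chga, chr12:102554821-102554940, plus strand: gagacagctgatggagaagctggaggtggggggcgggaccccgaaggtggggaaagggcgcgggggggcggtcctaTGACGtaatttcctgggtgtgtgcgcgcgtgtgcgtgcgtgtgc
Scg3, chr9:75684057-75684176, minus strand: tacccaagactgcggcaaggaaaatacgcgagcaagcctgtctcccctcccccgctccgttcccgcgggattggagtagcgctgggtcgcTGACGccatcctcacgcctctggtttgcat
*Vgf* is named only. The start used for *Scg3* lies inside the annotated gene and is that of 1 of its RefSeq transcripts. The full CRE began 72 bases before the start in *Chgb* and 68 bases before it in *Scg2*, and *Chga* and *Scg3* had only the core, 44 and 30 bases before the start. Both strands were searched in windows of 300 bases (250 before to 50 after the start); the full CRE stood in 1.79% of all 32851 windows and the core, which every full CRE contains on both strands, in 20.8%. The GC box (GGGCGG) occurred in the windows of *Chga* and *Chgb* and in 35.7% of all windows. The letters of the TATA box (TATAAA) occurred in the window of *Chga* and in 13.6% of all. In *Chga* they began 6 bases after the start used, not before it. An AP-1 site (TGANTCA), held by 7.81% of all windows, was in none of the 4. A match is a description of the letters, not of binding.

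The granins did not move as 1 group after 2 h in high glucose. *Scg2* rose by 7.44%, *Chgb* fell by 13.2% and *Vgf* fell by 13.9% (edgeR adjusted p = 0.0068, 3.4e-05 and 0.025), while *Chga* and *Scg3* did not pass the test. Of the 5 members, then, 3 passed the test, where 22.2% of all tested genes did; 1 was higher and 2 were lower, where 12.1% of all tested genes were higher and 10.2% were lower. The CPM of 4 members did not overlap between conditions, *Scg2* above (19.5% of tested genes) and *Chga*, *Chgb* and *Vgf* below (18.0%), against 37.5% of tested genes in either direction. Taking only tested genes that averaged 100 CPM or more, as all 5 members did, the background of calls was 34.2% higher and 19.9% lower. The share without overlap was not counted at that depth, so the count of 4 is not a result about the granins. All of these changes were small, since 64.2% of tested genes had a larger absolute log2 fold change (log2FC, high minus low glucose) than *Vgf*, whose log2FC of -0.22 was not separated from the -0.20 of *Chgb*: their order turned without high-glucose replicate 1 or low-glucose replicate 2. With the study's own limit of a fold change above 1.5 at an unadjusted p under 0.05, none of the 5 would be counted (1989 genes would, 15.2% of those tested), and 3 of the 5 had an edgeR adjusted p under 0.05.

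*Chgb* (ENSMUSG00000027350, chromosome 2) encodes chromogranin B, which in mouse islets supports hormone secretion. It had 3886, 3829.7 and 3778 CPM in high glucose, against 4379, 4373 and 4489.9 CPM in low glucose. The raw counts behind these were 62537, 63864 and 76501 in high and 41318, 50991 and 55267 in low glucose. The conditions were far apart relative to their spread, and every high-glucose library lay below every low-glucose one. The means were 3831 ± 54.0 CPM in high and 4414 ± 65.9 CPM in low glucose (SD, n = 3 each; log2FC = -0.20, SE 0.031, 95% interval -0.27 to -0.14, edgeR adjusted p = 3.4e-05). This call held under all 18 alternative settings of model, scaling, filter, block and left-out library.

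*Scg2* (ENSMUSG00000050711, chromosome 1), the secretoneurin precursor, was the one member that rose. It had 12236, 12268 and 12350.2 CPM in high glucose, against 12008, 11099.9 and 11194 CPM in low glucose. It drew 196887, 204573 and 250057 raw counts in high and 113294, 129437 and 137790 in low glucose. The 3 high-glucose libraries lay within a narrow band above all of low glucose, where replicate 1 was the highest. The means were 12285 ± 59.1 CPM in high and 11434 ± 499 CPM in low glucose (SD, n = 3 each; log2FC = 0.10, SE 0.027, 95% interval 0.048 to 0.16, edgeR adjusted p = 0.0068). The call was lost with DESeq2 (log2FC = 0.093, DESeq2 adjusted p = 0.095), with upper-quartile factors or library totals only (edgeR adjusted p = 0.11 and 0.17) and without low-glucose replicate 3 (edgeR adjusted p = 0.060). As a plain share of the library, unscaled by TMM, *Scg2* overlapped between conditions, with 1.206%, 1.204% and 1.208% in high and 1.23%, 1.12% and 1.13% in low glucose.

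*Vgf* (ENSMUSG00000037428, chromosome 5) is the least abundant of the 5 and has the widest interval. It had 192, 198 and 195 CPM in high glucose, against 217, 233 and 229.8 CPM in low glucose. These rest on 3090, 3308 and 3947 raw counts in high and 2043, 2719 and 2829 in low glucose. The conditions did not overlap. The means were 195 ± 3.17 CPM in high and 227 ± 8.80 CPM in low glucose (SD, n = 3 each; log2FC = -0.22, SE 0.068, 95% interval -0.36 to -0.074, edgeR adjusted p = 0.025). Its direction held in every setting, but it did not pass when high-glucose replicate 1, 2 or 3 or low-glucose replicate 2 or 3 was left out (edgeR adjusted p 0.073 to 0.10), nor with no low-count filter (edgeR adjusted p = 0.10).

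*Chga* (ENSMUSG00000021194, chromosome 12) encodes chromogranin A, the most widely used marker of endocrine granules. It had 11439, 11438 and 11378 CPM in high glucose, against 11675, 12017 and 11807 CPM in low glucose. Raw counts were 184076, 190744 and 230374 in high and 110156, 140136 and 145333 in low glucose. No library of one condition reached the other, but the gap was small, at means of 11419 ± 35.1 CPM in high and 11833 ± 173 CPM in low glucose (SD, n = 3 each; log2FC = -0.051, SE 0.023, 95% interval -0.098 to -0.0046, edgeR adjusted p = 0.11). It passed with limma-voom (adjusted p = 6.9e-04), and in edgeR with upper-quartile factors, with library totals only and without low-glucose replicate 1 (adjusted p = 0.0065, 0.0021 and 0.0017), where the log2FC ran from -0.099 to -0.069. A fall beyond 0.10 on the log2 scale lies outside the interval of the fit as reported.

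*Scg3* (ENSMUSG00000032181, chromosome 9), the membrane adaptor, showed no detectable change. It had 2335, 2210.45 and 2192 CPM in high glucose, against 2467, 2166 and 2250.0 CPM in low glucose. Its raw counts were 37567, 36861 and 44375 in high and 23272, 25261 and 27696 in low glucose. The conditions overlapped, with means of 2246 ± 77.7 CPM in high and 2294 ± 155 CPM in low glucose (SD, n = 3 each; log2FC = -0.031, SE 0.045, 95% interval -0.12 to 0.062, edgeR adjusted p = 0.69). Replicate 1 was the highest in both conditions. Without low-glucose replicate 1 the log2FC was 0.016.

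**Figure D1:**
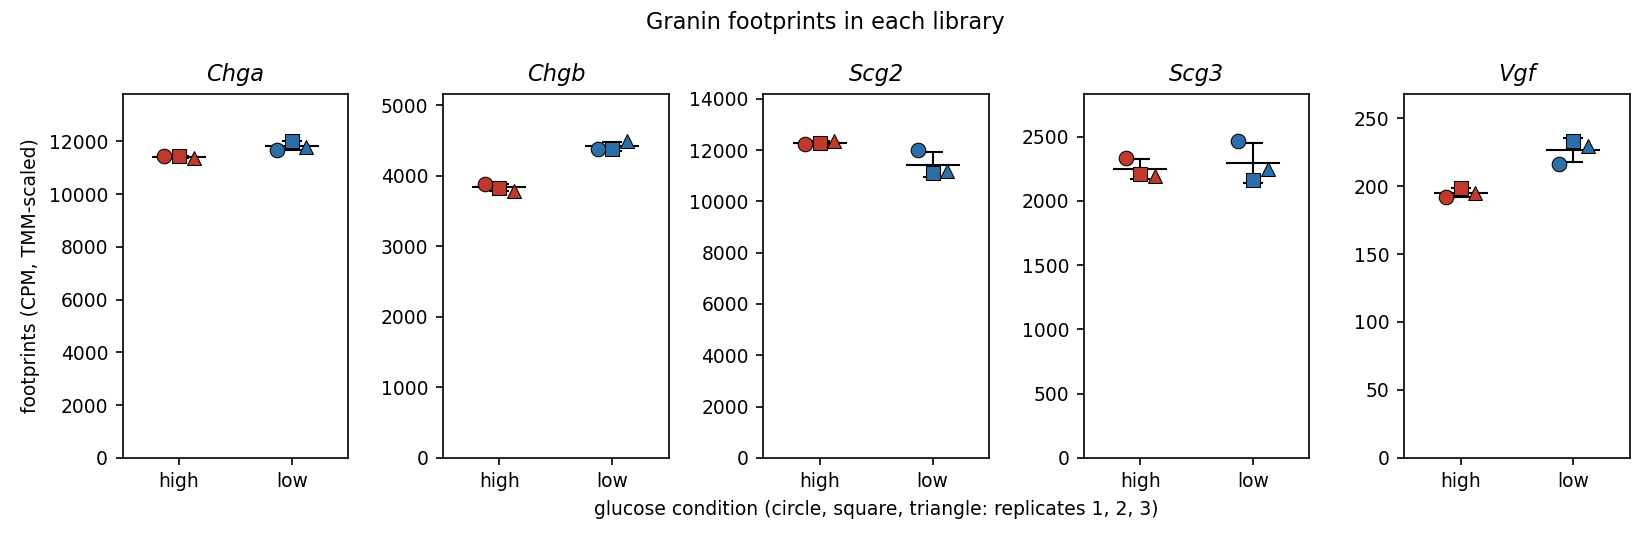
Footprints of each granin gene (y axis from 0, CPM after TMM scaling) in the 3 high-glucose libraries (left, red) and the 3 low-glucose libraries (right, blue), with horizontal marks at the mean and bars of 1 SD. *Chgb* and *Vgf* lay lower in high glucose in all libraries, *Scg2* lay higher, *Chga* was separated by a small gap (11419 CPM in high and 11833 CPM in low glucose), and *Scg3* overlapped.

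The spread between replicates differed among members. Counting error alone gives a coefficient of variation of 0.215% in high and 0.281% in low glucose for *Scg2*, against a measured 0.481% in high and 4.37% in low glucose. For *Scg3* the counting error was 0.504% in high and 0.629% in low glucose, against a measured 3.46% in high and 6.75% in low glucose. In *Vgf*, with fewer counts, both were of similar size in high glucose (1.71% from counting, 1.63% measured) and the measured spread was larger in low glucose (2.00% from counting, 3.89% measured). On the table's own coordinates no gene overlaps *Chga*, *Chgb*, *Scg2* or *Vgf*, and the one gene that overlaps *Scg3*, *Gm37871* on the other strand, had 1 count over all libraries.

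Of the 5 genes, 4 had among the highest footprint counts of the islet. By summed count *Scg2* ranked 5 and *Chga* 6 of all genes, *Chgb* 23, *Scg3* 31 and *Vgf* 639. Per kilobase of the deposited gene length, which covers more than the coding region, the level order was *Scg2* (4884 ± 23.5 CPM per kb in high, 4546 ± 198 in low glucose), *Chga* (4143 ± 12.7 in high, 4294 ± 62.7 in low glucose), *Chgb* (1398 ± 19.7 in high, 1611 ± 24.0 in low glucose), *Scg3* (820.2 ± 28.4 in high, 838 ± 56.6 in low glucose) and *Vgf* (65.6 ± 1.07 in high, 76.2 ± 2.96 in low glucose; SD, n = 3 each). Neighbours in this order were clearly apart except *Scg2* and *Chga*. Their ratio per kilobase was 1.17 to 1.19 in high glucose and 1.01 to 1.13 in low glucose, where the difference of the means was 253 CPM per kb beside an SD of 198 for *Scg2*.

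Ratios between granins in the same library do not depend on how libraries are scaled, so they were compared as well. *Scg2* gave 315, 320.3 and 327 footprints per 100 *Chgb* footprints in high glucose, against 274, 254 and 249.3 in low glucose. All 3 high-glucose libraries lay above all 3 low-glucose ones, and the log2 ratio of *Chgb* to *Scg2* differed by -0.31, the second largest shift among 10 pairs of members after *Scg2* over *Vgf* (0.32) in size. Of the 10 pairs, 7 did not overlap between conditions, each with an exact permutation p of 0.10 (two-sided, adjusted p = 0.14), which is the smallest that 3 against 3 libraries can give, so no single ratio could pass 0.05. The 10 pairs reuse 5 genes, and 65.1% of all pairs of tested genes that averaged 100 CPM or more did not overlap either, so the count of 7 is not a result about the granins. The 3 pairs that overlapped were *Chga* to *Scg3*, *Chgb* to *Vgf* and *Scg3* to *Vgf*. The log2 ratio of *Chgb* to *Vgf*, both of which fell, was 4.30 ± 0.038 in high and 4.29 ± 0.055 in low glucose (SD, n = 3 each).

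Within the granin sum, *Scg2* took 41.0% ± 0.324 in high and 37.8% ± 1.05 in low glucose, and *Chgb* took 12.8% ± 0.139 in high and 14.6% ± 0.369 in low glucose (SD, n = 3 each; no overlap for either, exact permutation p = 0.10, adjusted p = 0.16 over 11 shares). *Vgf* took 0.651% ± 0.012 in high and 0.750% ± 0.040 in low glucose, also without overlap. The shares of *Chga* (38.1% ± 0.0933 in high, 39.2% ± 1.13 in low glucose) and *Scg3* (7.49% ± 0.234 in high, 7.59% ± 0.394 in low glucose) overlapped. The share of *Scg2* differed by 3.14 percentage points, that of *Chgb* by -1.84 and that of *Chga* by -1.10. These shares make up the granin sum, so a larger share of *Scg2* means less for the others together. They restate the ratios between members and are not separate pieces of evidence. No background over other genes was counted for them.

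As a whole, the 5 granins took a little less of each library in high glucose, and less relative to insulin, as the median tested gene did. Their summed share was 2.97%, 2.94% and 2.92% in high glucose, against 3.14%, 3.02% and 3.03% in low glucose (difference of means -0.12 percentage points, no overlap, exact permutation p = 0.10, adjusted p = 0.16 over 11 shares). Without *Ins1* and *Ins2* in the total, the difference was -0.044 percentage points. Both insulin genes rose, *Ins2* with 117224 ± 6077 CPM in high and 91577 ± 7474 CPM in low glucose and *Ins1* with 21778 ± 452 CPM in high and 19463 ± 626 CPM in low glucose (SD, n = 3 each). Their log2FC were 0.36 for *Ins2* and 0.16 for *Ins1* (edgeR adjusted p = 2.2e-07 and 1.5e-05).

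For every 100 footprints on *Ins1* and *Ins2* there were 22.7, 21.5 and 20.6 granin footprints in high glucose, against 29.8, 26.2 and 25.8 in low glucose. No library overlapped (log2 ratio differing by -0.34; exact permutation p = 0.10, adjusted p = 0.10 over 6 ratios). Each of the 5 members shared this direction without overlap, from a log2 difference of -0.22 for *Scg2* to -0.53 for *Chgb* and -0.54 for *Vgf*. Of the 13098 tested genes other than *Ins1* and *Ins2*, 37.7% lay lower against insulin without overlap, a share not counted at 100 CPM or more. Over the 12577 with a count in every library the median log2 difference was -0.32. The summed granins therefore stood close to the median gene on this ratio. *Scg2*, which rose after scaling, had 8.85 ± 0.377 footprints per 100 insulin footprints in high and 10.3 ± 1.13 in low glucose (SD, n = 3 each). All 6 ratios share the insulin counts as denominator, so they are not separate pieces of evidence.

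**Figure D2:**
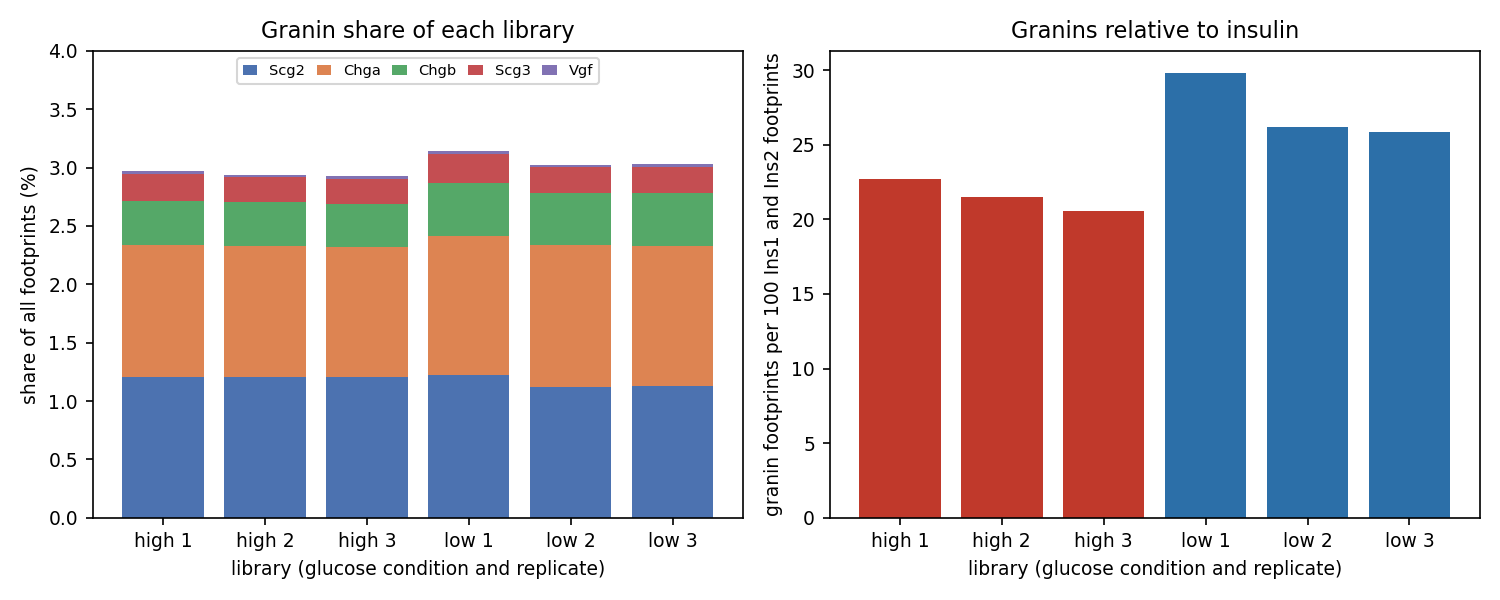
Left, the share of all footprints (%) taken by each granin in each library, stacked from 0; right, granin footprints per 100 footprints on *Ins1* and *Ins2*, with high-glucose libraries first and red, low-glucose ones blue. The stacks sum to 2.92% to 2.97% in high and 3.02% to 3.14% in low glucose, while the bars on the right lie between 20.6 and 22.7 in high and between 25.8 and 29.8 in low glucose.

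Hormones stored in the same granules went in both directions. *Iapp*, the amyloid peptide of beta cells with 27115 ± 939 CPM in high and 28925 ± 1624 CPM in low glucose (SD, n = 3 each), fell by 0.093 on the log2 scale (edgeR adjusted p = 0.023) although the libraries of both conditions overlapped. Glucagon and somatostatin, the products of alpha and delta cells, fell by more, with log2FC of -0.24 for *Gcg* (edgeR adjusted p = 1.1e-08) and -0.42 for *Sst* (edgeR adjusted p = 6.4e-09). The peptide hormone gene *Pyy* fell as well (log2FC = -0.35, edgeR adjusted p = 9.9e-07), and *Nucb2*, the nesfatin precursor, rose (log2FC = 0.27, edgeR adjusted p = 0.0012). Of 14 islet hormone genes tested, 3 were higher, 4 were lower and 7 did not pass. The background was 12.1% higher and 10.2% lower over all tested genes, and 34.2% and 19.9% at 100 CPM or more. The list had a median log2FC of -0.29 beside -0.012 over all genes tested. Its lower count was 3 with DESeq2, with no low-count filter, and without high-glucose replicate 2 or low-glucose replicate 2 or 3. With a replicate block in DESeq2 it was 5. The granin fold changes lay between those of *Sst* and *Ins2*.

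A pair of further proteins is often counted with the granins. *Pcsk1n*, whose product proSAAS inhibits the convertase encoded by *Pcsk1*, had 4249, 4463 and 4622 CPM in high glucose, against 3790.3, 3852 and 3739 CPM in low glucose. It rose without overlap (log2FC = 0.23, SE 0.034, edgeR adjusted p = 2.9e-05) and passed under all 18 alternatives. *Scg5*, which encodes a chaperone of the convertase PCSK2, had 899 ± 12.97 CPM in high and 945 ± 22.5 CPM in low glucose (SD, n = 3 each) and did not pass (log2FC = -0.073, edgeR adjusted p = 0.29).

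**Figure D3:**
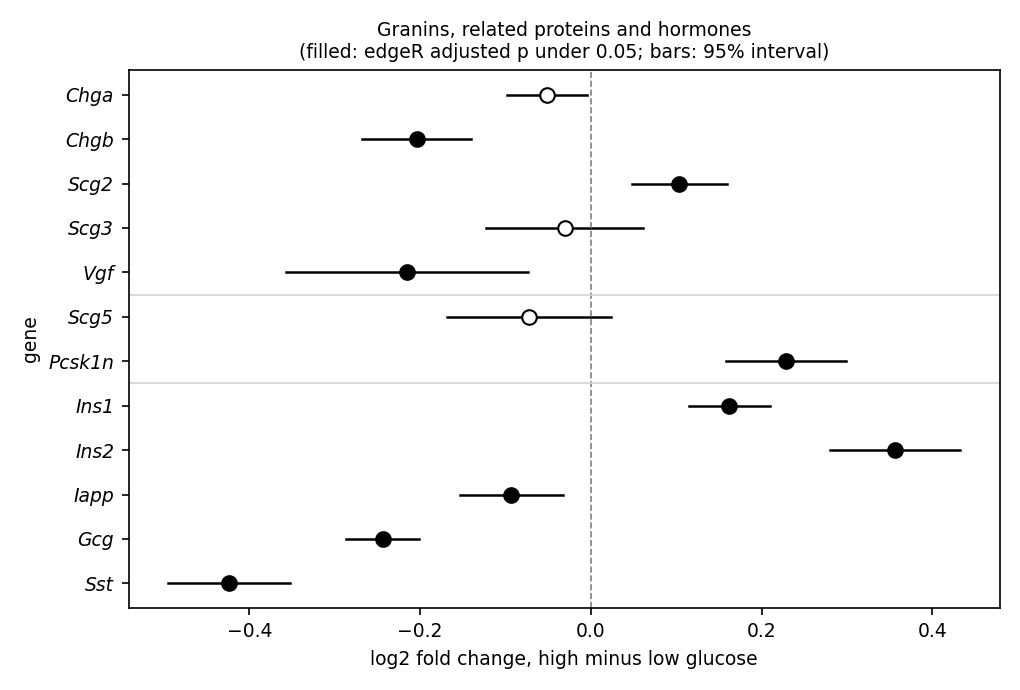
Log2 fold change, high minus low glucose, with 95% intervals, for the 5 granins (top), *Scg5* and *Pcsk1n* (middle) and 5 hormone genes (bottom); filled points have an edgeR adjusted p under 0.05. The granins lie between -0.22 (*Vgf*) and 0.10 (*Scg2*), inside the range from *Sst* (-0.42) to *Ins2* (0.36).

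The listed genes of prohormone processing, which include enzymes that cut and trim granins, did not move uniformly. *Pcsk1*, the convertase that acts first on many precursors, had 3060.2 ± 73.5 CPM in high and 2459 ± 18.9 CPM in low glucose (SD, n = 3 each), a log2FC of 0.32 (edgeR adjusted p = 5.5e-07). *Furin*, the convertase of the trans-Golgi network (log2FC = 0.57, edgeR adjusted p = 0.015), and *Pcsk2* (log2FC = 0.079, edgeR adjusted p = 0.033) rose, and *Ero1b*, an oxidase for disulfide bonds in the ER, fell (log2FC = -0.34, edgeR adjusted p = 5.1e-05). Of 14 prohormone processing genes, 4 were higher, 1 was lower and 9 did not pass, beside 12.1% higher and 10.2% lower over the table (34.2% and 19.9% at 100 CPM or more), with a median log2FC of 0.082. The higher count was 1 without high-glucose replicate 1 and 2 without high-glucose replicate 2 or 3 or low-glucose replicate 3. It was also 2 with DESeq2's size factors in edgeR, upper-quartile factors or library totals only, and at most 5 over the alternatives. The lower count was 2 with limma-voom, upper-quartile factors or library totals only and without low-glucose replicate 1. As a plain share of the library *Pcsk2* overlapped, with 0.8062% in high-glucose replicate 3 and 0.8067% in low-glucose replicate 3.

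Among 31 genes of granule biogenesis and maturation, 7 were higher, 5 were lower and 19 did not pass (median log2FC 0.073), against the same backgrounds of 12.1% higher and 10.2% lower over all tested genes and 34.2% and 19.9% at 100 CPM or more. Only 3 were higher without high-glucose replicate 2 or 3, and 3 were lower without high-glucose replicate 2. The granule membrane protein *Ptprn2* rose (425 ± 14.3 CPM in high, 319.8 ± 9.29 CPM in low glucose, SD, n = 3 each; log2FC = 0.41, edgeR adjusted p = 2.2e-05), as did the trans-Golgi protein *Tgoln1* (log2FC = 0.28, edgeR adjusted p = 0.0031) and the proton pump accessory protein *Atp6ap2* (log2FC = 0.19, edgeR adjusted p = 0.0033). The GTPase *Rab2a*, needed for granule maturation in worms, fell (log2FC = -0.62, edgeR adjusted p = 2.2e-05), and so did the SNAREs *Vti1a* (log2FC = -0.94, edgeR adjusted p = 0.0017) and *Stx6* (log2FC = -0.45, edgeR adjusted p = 0.0079). For 20 genes of granule exocytosis 1 was higher, 2 were lower and 17 did not pass (median log2FC -0.057). The backgrounds were the same 12.1% higher and 10.2% lower, and 34.2% and 19.9% at 100 CPM or more. The higher count was 3 with limma-voom, with no low-count filter and without low-glucose replicate 1. It was 2 with at least 10 counts in every library, robust dispersion or a replicate block in edgeR, and without low-glucose replicate 2. *Rab3a*, a GTPase on the granule, was higher (log2FC = 0.54, edgeR adjusted p = 0.0046), and the fusion clamp *Cplx2* (log2FC = -0.83, edgeR adjusted p = 4.6e-05) and the priming factor *Cadps* (log2FC = -0.40, edgeR adjusted p = 0.0042) were lower.

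Several listed regulators of granin transcription had larger fold changes than any of the 5 granins, as did 64.2% of all tested genes. The AP-1 subunit *Fos* had 53.5 ± 4.13 CPM in high and 2.01 ± 0.118 CPM in low glucose (SD, n = 3 each; log2FC = 4.73, edgeR adjusted p = 7.3e-14). *Crem*, whose product is known to bind CREs (binding was not measured here), had 47.2 ± 4.95 CPM in high and 15.4 ± 2.26 CPM in low glucose (SD, n = 3 each; log2FC = 1.61, edgeR adjusted p = 1.1e-07), and the endocrine factor *Neurod1* had a log2FC of 0.97 (edgeR adjusted p = 2.2e-08). *Tox3*, an HMG-box factor, was lower (log2FC = -1.32, edgeR adjusted p = 8.1e-08), as was *Jun* (log2FC = -0.66, edgeR adjusted p = 0.0029). Of 21 such regulators tested, 7 were higher, 2 were lower and 12 did not pass. The list was chosen with earlier results of these data known, so its counts are a description only. Its higher count was 5 without high-glucose replicate 1 or 2 or low-glucose replicate 2. The background was 12.1% higher and 10.2% lower over all tested genes, and 34.2% and 19.9% at 100 CPM or more. Of 9 RNA-binding proteins listed for granule mRNAs, 3 were higher (*Pabpc1*, *Ptbp1* and *Pdia4*, log2FC of 1.33, 0.41 and 0.17), none was lower and 6 did not pass, against those same shares. Their edgeR adjusted p were 6.3e-12, 0.0010 and 0.015; *Pdia4* is best known as a disulfide isomerase of the ER.

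Promoters with the full CRE were also looked at across the table. Of the tested genes, 10091 matched the promoter table by symbol, and 379 of these held the full CRE. Among them 15.6% were higher and 9.76% were lower in high glucose (median log2FC 0.040), beside 12.3% and 10.1% of the 9712 genes without it (median log2FC -0.0075). *Scg2*, with the site, was among the higher genes, and *Chgb*, also with the site, was among the lower ones.

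To describe which genes shared a granin's pattern, log2 CPM centred on each gene's mean were compared over the 6 libraries among the 7779 genes that averaged 10 CPM or more. The smallest root mean square differences from *Chga* were those of *Scg5* (0.021) and the imprinted gene *Peg3* (0.021), and from *Chgb* those of *Psap* (0.019), the precursor of lysosomal saposins, and *Naglu* (0.020), a lysosomal hydrolase. For *Scg2* they were *Ncstn* (0.020), a subunit of gamma-secretase, and *Lrch1* (0.024), for *Scg3* *Gpc4* (0.025) and *Gtf2h3* (0.027), and for *Vgf* the G protein subunit *Gnb1* (0.023) and *Gse1* (0.025), all in log2 CPM.

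**Figure D4:**
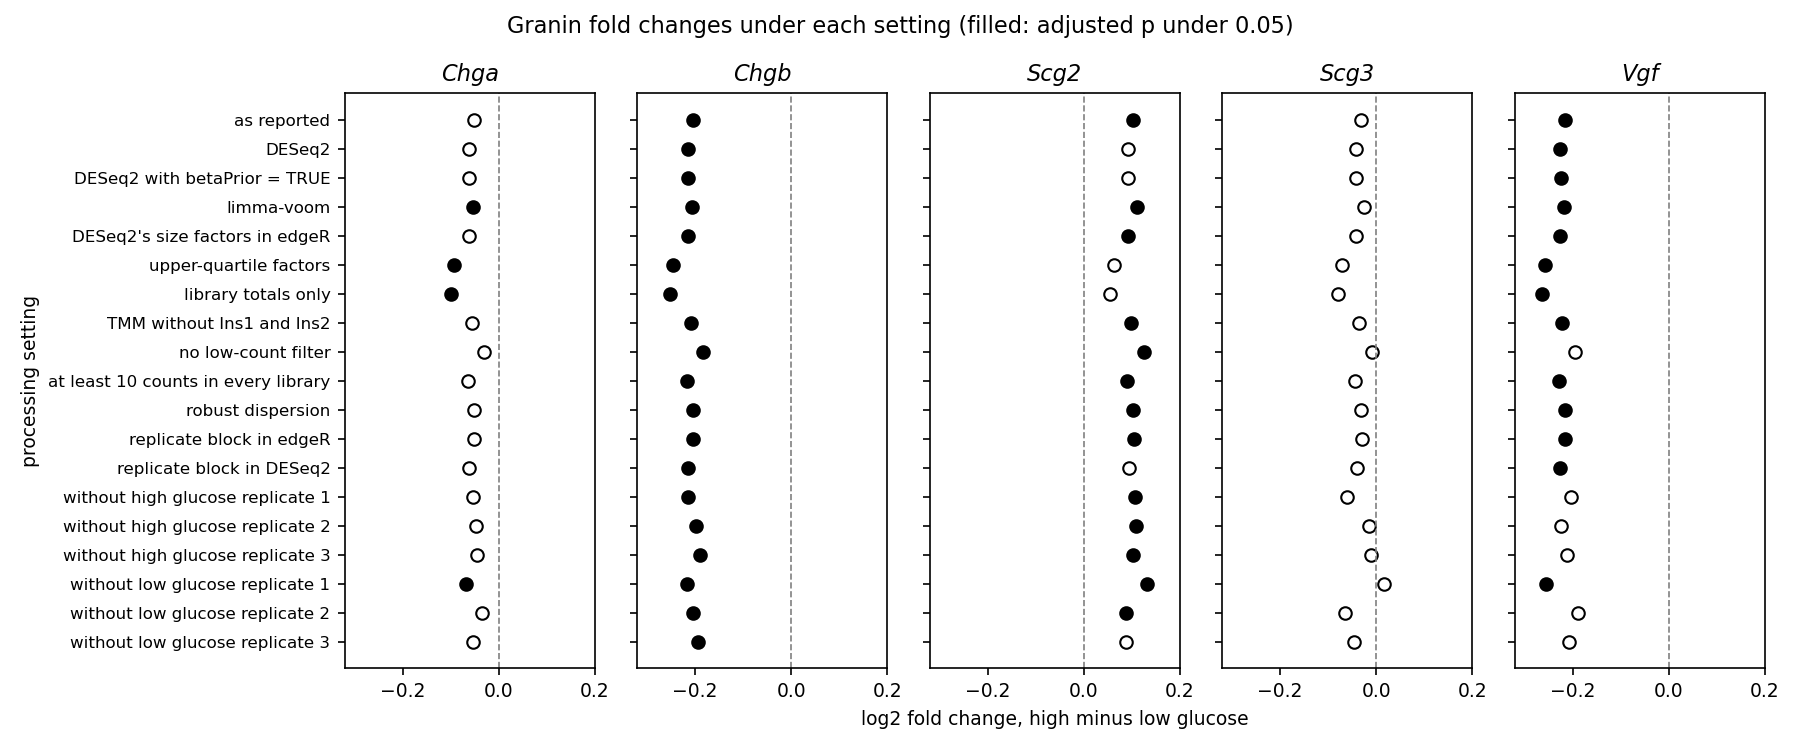
Log2 fold change, high minus low glucose, of each granin under the reported setting and 18 alternatives (rows); filled points have an adjusted p under 0.05. *Chgb* is filled in every row, *Scg2* and *Vgf* lose their call in 6 rows each, *Chga* gains one in 4 rows, and *Scg3* crosses 0 in 1 row.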

How the data were processed

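The deposited values are whole-number Ribo-seq counts per gene, which the authors made by removing rRNA and tRNA reads with Bowtie, mapping with TopHat2 (version 2.0.12) and counting with HTSeq (version 0.9.1). The submitters' notes name the build mm10. The deposited gene starts of the 5 members do not lie within the GRCm38.p6 genes, so no position from that table is given. The deposited gene length, in bases, served only for levels per kilobase; how it was made is not given in the sources used here, and no RPKM was used.

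The test was edgeR's (version 4.0.16, under R version 4.3.3): filterByExpr by condition, TMM scaling and the quasi-likelihood F test, with Benjamini-Hochberg adjustment over all 13100 genes tested and a threshold of 0.05. The fit gives no standard error, so the SE was derived from its F statistic. It is the size of the log2FC computed without a prior count, divided by the square root of F. Intervals (95%) use this SE with 17.6 prior and 4 residual degrees of freedom. Log2 CPM used a prior count of 2. Shares and ratios were compared by exact two-sided permutation of the 6 libraries. The fit was tested on simulated data, with changes planted in genes drawn at random from those that passed the filter. It called 33.7% of planted changes of 0.58 and 62.9% of planted changes of 1 on the log2 scale, with 2 false calls. The alternatives were DESeq2 (version 1.42.0), limma-voom (limma version 3.58.1), other scalings and filters, a robust dispersion, replicate blocks and each library left out. A library total without acinar markers was added after seeing the data. Library totals ran from 16322162 to 20692579 in high glucose and from 9242549 to 12175699 in low glucose.

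The members and the gene lists were chosen with earlier results of these data known. Named genes are the 5 members, both genes of the wider family, 5 hormones, in each other list the 3 higher and 3 lower genes (at most) of smallest adjusted p, and for each member the 2 genes most alike in pattern. Promoter sequences are RefSeq's, build GRCm38.p6. RNA-seq and footprint positions along mRNAs are not analysed here.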

Additional observations from a re-analysis of the deposited data

How the results depend on the processing

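*Chgb* kept its direction and its side of the threshold under all 18 alternatives (log2FC -0.25 to -0.18; -0.22 to -0.19 with 1 library left out). *Chga* kept its direction but passed with limma-voom (log2FC -0.053), with upper-quartile factors (-0.093) and with library totals only (-0.099), and ran from -0.069 to -0.034 with 1 library left out, passing without low-glucose replicate 1. *Scg2* no longer passed with DESeq2 (0.093), with betaPrior = TRUE in DESeq2 (0.092), with upper-quartile factors (0.063), with library totals only (0.055) and with a replicate block in DESeq2 (0.094), and ran from 0.087 to 0.13 with 1 library left out. *Vgf* no longer passed with no low-count filter (-0.19) and ran from -0.25 to -0.19 with 1 library left out, and of these 6 fits it passed only in the one without low-glucose replicate 1. *Scg3* passed nowhere, and its sign turned without low-glucose replicate 1 (0.016; -0.065 to 0.016 with 1 library left out). The causes were not tested.

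The count of higher members was 0 with DESeq2, with betaPrior = TRUE in DESeq2, with upper-quartile factors, with library totals only and with a replicate block in DESeq2, and 0 to 1 with 1 library left out. The count of lower members was 1 with no low-count filter and 1 to 3 with 1 library left out. A fold change above 1.5 with an unadjusted p under 0.05 gave 0 higher and 0 lower members, and 865 higher and 1124 lower genes in the whole table. Over the 111 tested genes of the lists, 26 were higher and 14 lower, and the higher count ran from 17 (without high-glucose replicate 2) to 28 with 1 library left out. Without *Ins1* and *Ins2* in the total, the difference in granin share was -0.044 percentage points; with 1 library left out it ran from -0.14 to -0.084, and without acinar markers it was -0.12 percentage points.

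Replicate numbers are shared between conditions, but no source says that a number marks the same mice. Deviations from the condition means correlated by 0.0068 to 0.011 between same-numbered libraries and by -0.0085 to 8.9e-04 between others, and every library correlated best with its own number. All of these correlations were very small, so they do not settle whether the numbers mark pairs. With the replicate block, edgeR called 1561 higher and 1308 lower genes (1579 and 1333 without it) and changed no call of the 5 members, with *Chga* at -0.051, *Chgb* at -0.20, *Scg2* at 0.10, *Scg3* at -0.029 and *Vgf* at -0.21. Sign flips of the same-numbered pairs gave p = 0.25 for the granin share and the insulin ratio, the smallest that 3 pairs allow in an exact test.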

Other observations

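Relative to the hormones of the other islet cells the granins went the opposite way from their ratio to insulin. There were 71.2 ± 2.40 granin footprints per 100 *Gcg* footprints in high and 60.6 ± 1.31 in low glucose, and 641 ± 4.43 per 100 *Sst* footprints in high and 482 ± 19.7 in low glucose (SD, n = 3 each). Neither ratio overlapped between conditions, with every high-glucose library above every low-glucose one. The share of all tested genes that did the same was not counted. Both ratios were chosen after the data were seen and were not among the planned comparisons. *Gcg* and *Sst* themselves fell (log2FC of -0.24 and -0.42), while the median log2FC over all tested genes was -0.012. The higher ratios are therefore not shown to be particular to the granins.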
